A study of Mus musculus with 109 samples.

Results

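The 10 genes described here belong to the integrated stress response and were measured in retinas of mice given inflammatory cytokines. They are Atf4, Atf5, Trib3, Sesn2, Asns, Psat1, Phgdh, Shmt2, Slc7a11 and Slc7a5, taken by symbol as 10 of the 37315 genes in the count table. RNA was sequenced from the retinas of 64 mice, 45 of which gave both eyes, at 2 to 6 months of age by the study's methods, after an injection of 2 µL into the vitreous. The cytokines were interleukin 1 alpha (IL1A, 0.1 µg/µL), tumor necrosis factor (TNF, 0.05 µg/µL) or both (IL1A+TNF), and PBS served as the control injection, in most mice in the eye opposite to the cytokine.

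WT retinas came from C57BL/6J mice. In batch 1, as the labels name it, retinas were taken at day 2 after PBS (n = 31), TNF (n = 8), IL1A (n = 9) or IL1A+TNF (n = 10), at day 14 after PBS (n = 7) or TNF (n = 6), and at day 35 after PBS (n = 6) or TNF (n = 9). In batch 2, all at day 2, WT mice received PBS (n = 5) or IL1A+TNF (n = 6), and Sarm1KO mice, deficient in the axon degeneration gene Sarm1, received PBS (n = 6) or IL1A+TNF (n = 6). No uninjected retina was among the samples, so every control retina had been injected with PBS.

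In the integrated stress response, kinases that sense amino acid shortage, misfolded protein, double-stranded RNA or lack of heme phosphorylate the initiation factor eIF2alpha. Translation then falls for most messages and rises for that of the transcription factor ATF4, which raises genes for amino acid synthesis, amino acid uptake and tRNA charging. The response has been studied in injured retinal ganglion cells, the neurons that send the optic nerve axons, and ATF4 itself is regulated mainly through translation, which an RNA count does not measure.

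ATF4 binds with C/EBP partners to a short element known as the CARE, TGATGNAA, which reads TTNCATCA on the opposite strand. Promoters of RefSeq genes, from 250 bases before to 50 after the start on GRCm38.p6, were found for 9 of the 10 genes and not for Slc7a5. The letters of the CARE were present on either strand in a promoter of 3 of these 9 genes and of 13 of the 39 other genes of the same response with a promoter. They were present for 4.51% of the 27025 genes with a promoter, and in 3.97% of all 32851 promoters. The match began 14 bases after the start in Trib3, 23 bases before it in Asns, and 66 and 47 bases before it in Slc7a11. The windows of these 3 genes are shown because the matches can be compared by eye. Those of Atf3, Nupr1, Chac1, Tars and Gars are shown because these genes stood among the largest differences below and were higher after IL1A+TNF. Vldlr, also among these differences and with a match, was lower, and its window is not shown. Each runs 5′ to 3′ on the strand of its gene, with the 8 matching bases in capitals.

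Trib3 (chr2:152344031-152344092, minus strand): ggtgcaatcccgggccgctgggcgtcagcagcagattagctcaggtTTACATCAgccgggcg
Asns (chr6:7693180-7693278, minus strand): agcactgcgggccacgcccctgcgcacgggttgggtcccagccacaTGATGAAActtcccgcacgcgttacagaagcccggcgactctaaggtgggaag
Slc7a11 (chr3:50443626-50443725, minus strand): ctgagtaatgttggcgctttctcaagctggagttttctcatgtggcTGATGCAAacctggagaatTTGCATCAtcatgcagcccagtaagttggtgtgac
Atf3 (chr1:191183390-191183489, minus strand): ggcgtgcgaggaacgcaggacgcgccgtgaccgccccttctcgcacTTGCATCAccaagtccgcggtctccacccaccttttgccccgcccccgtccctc
Nupr1 (chr7:126625527-126625626, minus strand): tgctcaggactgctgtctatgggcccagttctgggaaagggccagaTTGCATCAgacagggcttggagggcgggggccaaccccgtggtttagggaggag
Chac1 (chr2:119351003-119351102, plus strand): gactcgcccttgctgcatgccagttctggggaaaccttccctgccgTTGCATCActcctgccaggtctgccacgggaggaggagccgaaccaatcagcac
Tars (chr15:11399629-11399719, minus strand): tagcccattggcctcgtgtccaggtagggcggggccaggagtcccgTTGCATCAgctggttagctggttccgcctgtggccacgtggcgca
Gars (chr6:55037925-55038024, plus strand): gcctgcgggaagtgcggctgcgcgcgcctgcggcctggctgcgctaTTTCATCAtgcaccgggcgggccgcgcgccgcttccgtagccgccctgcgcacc

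A match is a run of letters and not a binding site, and RNA counts do not show which factor was bound. Of the members and other response genes with a promoter, 9 of the 29 higher after IL1A+TNF at day 2, 1 of the 4 lower and 5 of the 14 not called held a match. Among the 10 response genes outside the members with the largest differences below, 6 held one, Vldlr besides the 5 shown.

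Total counts ranged from 30014757 to 79064488 per retina (median 39374202). Levels are given as CPM, counts scaled to library size with TMM factors, and differences as log2 fold changes ± SE from limma, with Benjamini-Hochberg adjusted p-values over all genes tested. A gene was called when its adjusted p was below 0.05. Sarm1 itself ranged from 25.97 to 52.9 CPM in Sarm1KO retinas and from 76.2 to 138 CPM in WT retinas, so the groups did not overlap. Summed levels of 5 retinal ganglion cell markers were 65.2 and 79.7 CPM in the Sarm1KO IL1A+TNF retinas of replicates 5 and 4, the lowest of all retinas, where the PBS retinas of the same mice had 443 and 447 CPM. These retinas stood apart, and each Sarm1KO result is given with and without their 2 mice, a choice made after seeing the data.

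In PBS retinas at day 2, Atf4 was by far the most abundant member per kilobase of exon, with a median of 81.2 CPM per kb (64.1 to 108, n = 31). Slc7a5 (16.2), Asns (14.6) and Shmt2 (12.1) followed by median CPM per kb, then Psat1 (8.76), Atf5 (8.68) and Sesn2 (5.99). Slc7a11 (3.60), Trib3 (3.05) and Phgdh (2.54) were lowest. Only Atf4 had a range of retinas that no other member reached. Of the other neighbors in this order, Atf5 (7.06 to 19.4) and Sesn2 (5.02 to 6.82 CPM per kb) did not overlap, and the rest did. Each member was detected in every retina, from 99 to 3155 counts for Phgdh, 134 to 901 for Trib3 and 4915 to 22824 for Atf4.

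**Figure D1:**
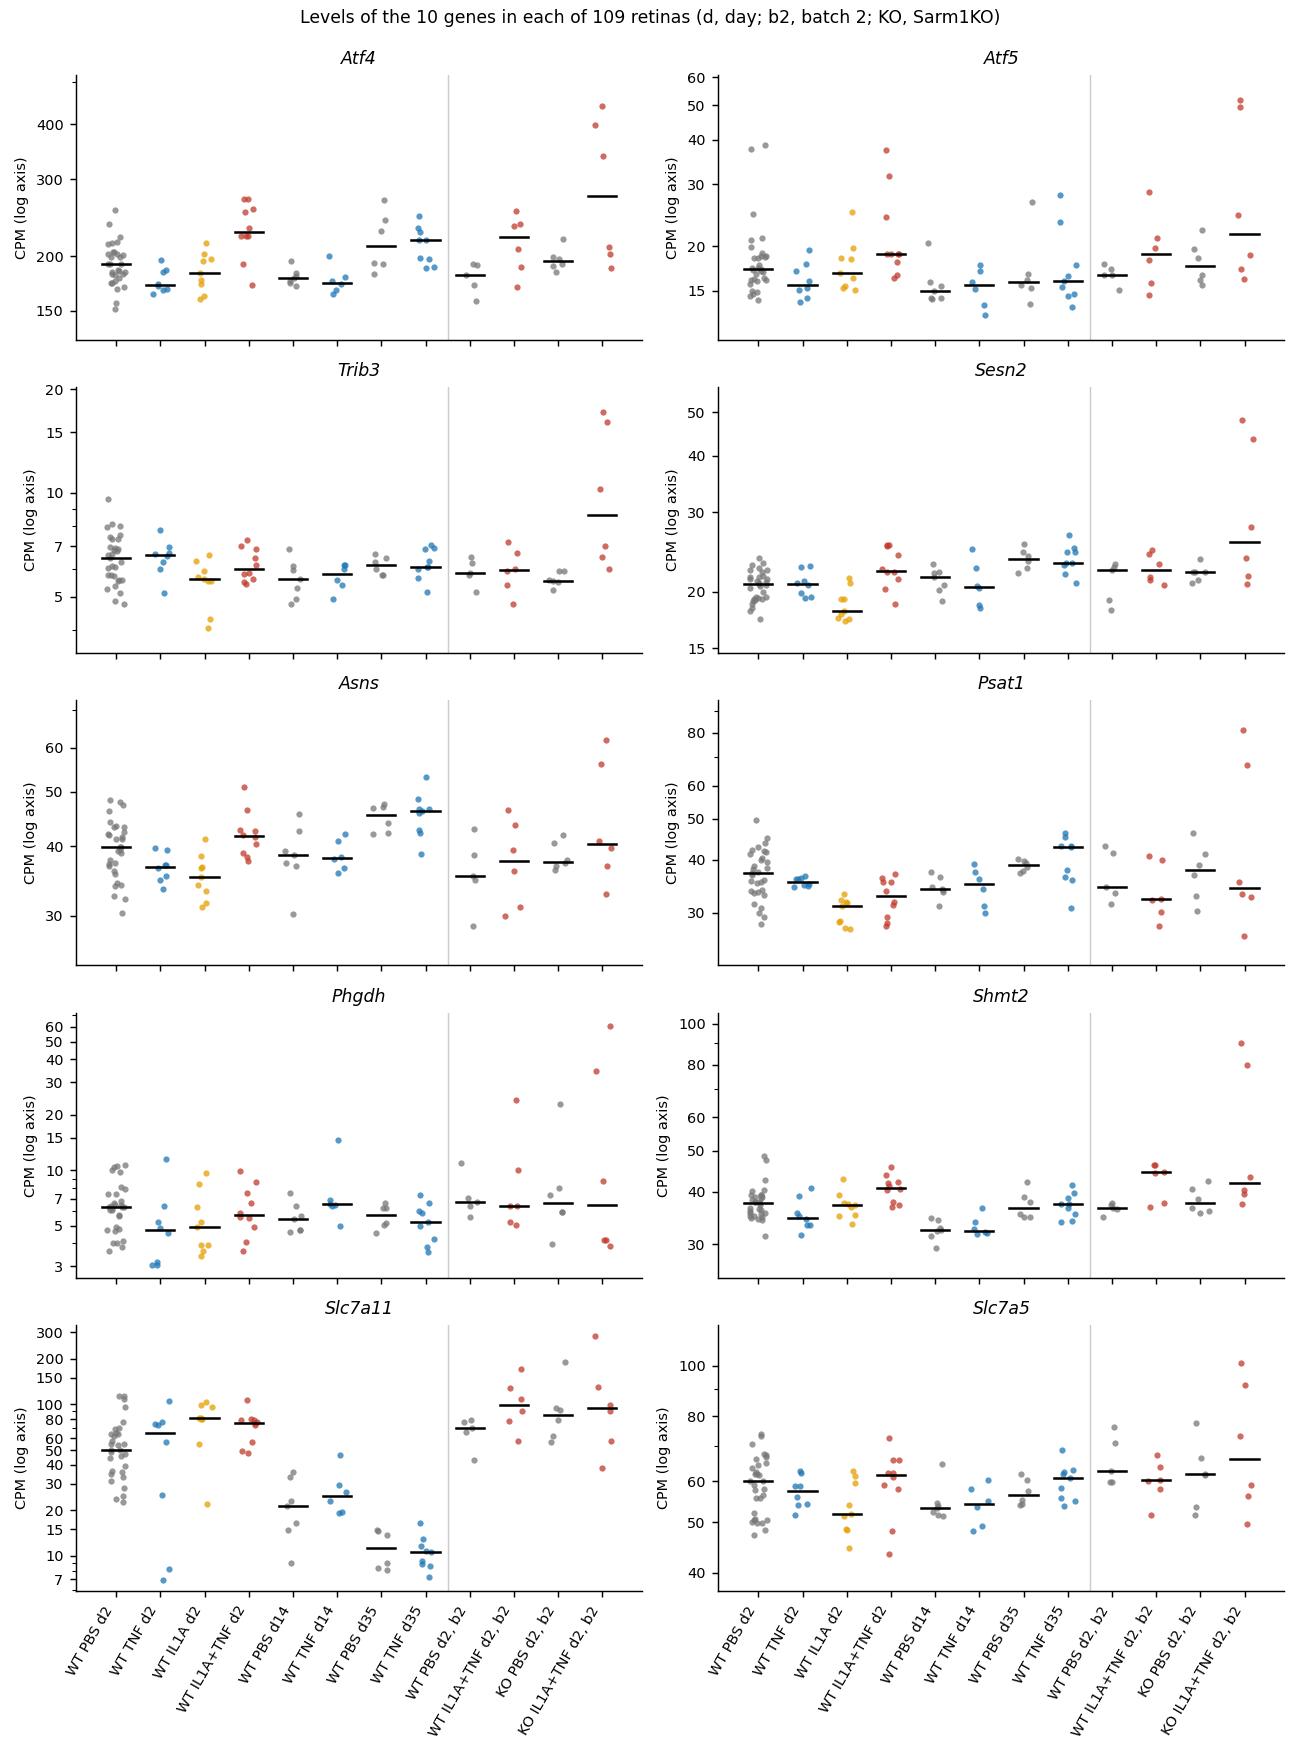
Levels of each member in CPM (log axis), with 1 point per retina and a black line at the median of each of the 12 groups; gray, PBS; blue, TNF; yellow, IL1A; red, IL1A+TNF. Atf4 retinas after IL1A+TNF at day 2 in WT batch 1 centered at 227 CPM against 192 CPM after PBS, Slc7a11 was lower at days 14 and 35 than at day 2, and 2 or 3 Sarm1KO retinas after IL1A+TNF lay far above the others in most panels.

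The question at day 2 was how the retina responded to each cytokine and to both together. After IL1A+TNF, Atf4, Sesn2 and Shmt2 were higher than after PBS, Psat1 was lower, and the other 6 members were not called. The differences that were called were small, at most the 1.19-fold difference of Atf4. The calls take 4 of 10 members, where 50.4% of the 19548 genes tested were called, 24.9% higher and 25.5% lower. The median log2 fold change of the members was 0.10, against -0.02 for all genes tested.

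Atf4 (chr15:80255184-80257541, plus strand), the transcription factor that gives the response its output, ranged from 151 to 255 CPM after PBS (median 192, n = 31) and from 172 to 270.5 CPM after IL1A+TNF (median 227, n = 10). The groups overlapped, but 9 of 10 IL1A+TNF retinas exceeded the PBS median and 3 exceeded the highest PBS retina. The log2 fold change was 0.25 ± 0.06 (adjusted p = 0.000154, limma). Atf5 (chr7:44812256-44816658, minus strand), a related factor that raises mitochondrial chaperones, had medians of 17.3 CPM after PBS (14.1 to 38.6) and 18.998 CPM after IL1A+TNF (16.3 to 37.5). Its log2 difference of 0.20 ± 0.11 was not called (adjusted p = 0.112, limma), and single retinas near 38 CPM occurred in both groups.

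Sesn2 (chr4:132492032-132510501, minus strand), which restrains mTORC1 when leucine is short, ranged from 17.4 to 23.7 CPM after PBS (median 20.8) and from 18.8 to 25.5 CPM after IL1A+TNF (median 22.3). Of the IL1A+TNF retinas, 8 of 10 lay above the PBS median and 4 above the highest PBS retina. Its log2 fold change was 0.13 ± 0.04 (adjusted p = 0.00434, limma). Trib3 (chr2:152337422-152344032, minus strand), a pseudokinase that ATF4 induces and that dampens its output, had medians of 6.48 CPM after PBS and 6.01 CPM after IL1A+TNF, with a log2 difference of -0.059 (95% interval -0.21 to 0.092).

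Among the enzymes, Shmt2 (chr10:127517123-127522444, minus strand), which makes one-carbon units from serine in mitochondria, ranged from 31.5 to 48.6 CPM after PBS (median 37.5) and from 36.8 to 45.7 CPM after IL1A+TNF (median 40.9). The IL1A+TNF range lay inside the PBS range, with 8 of 10 retinas above the PBS median. Its log2 fold change was 0.11 ± 0.04 (adjusted p = 0.0263, limma). Psat1 (chr19:15904678-15947337, minus strand), an aminotransferase of serine synthesis, went the other way, from a PBS median of 37.3 CPM (28.1 to 49.8) to 32.8 CPM (27.9 to 37.0). None of the 10 IL1A+TNF retinas exceeded the PBS median. It fell by 0.18 ± 0.06 on the log2 scale (adjusted p = 0.00667, limma).

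Asns (chr6:7675169-7693254, minus strand), which makes asparagine, had medians of 39.9 CPM after PBS (30.4 to 48.3) and 41.6 CPM after IL1A+TNF (37.6 to 51.0). Its log2 difference was 0.094 (95% interval -0.011 to 0.20) and was not called. Phgdh (chr3:98313170-98339990, minus strand), the entry enzyme of serine synthesis, had medians of 6.33 and 5.70 CPM. Its log2 difference of -0.060 had a wide 95% interval, from -0.39 to 0.27.

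Of the transporters, Slc7a11 (chr3:49892526-50443614, minus strand), the cystine and glutamate exchanger that feeds glutathione synthesis, had a median of 50.1 CPM after PBS (22.9 to 114) and 75.8 CPM after IL1A+TNF (47.5 to 107). Of the IL1A+TNF retinas, 8 of 10 lay above the PBS median and none above the highest PBS retina. The groups overlapped over most of their ranges, and the log2 difference of 0.47 ± 0.26 was not called (adjusted p = 0.13, limma). Slc7a5 (chr8:121881150-121907694, minus strand), the carrier of large neutral amino acids, had medians of 60.04 and 61.7 CPM and a log2 difference of 0.022 (95% interval -0.10 to 0.15). A fit with the mouse as a fixed factor compares the 2 eyes of each mouse, which only 8 of the 10 IL1A+TNF mice allow. With that fit Atf4 alone remained called (adjusted p = 0.0121, limma), while Sesn2 (0.0715), Psat1 (0.0707) and Shmt2 (0.367) were not. The share of all genes called with the mouse as a fixed factor is given neither here nor below.

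After IL1A alone, no member was called higher. Trib3, Sesn2, Asns and Psat1 were lower than after PBS, where 21.4% of genes tested were called and 9.45% were lower. The median log2 fold change of the members was -0.13, against -0.01 for all genes tested. Psat1 ranged from 27.4 to 33.1 CPM (median 31.2, n = 9), with none of the 9 retinas above the PBS median of 37.3 CPM. It fell by 0.28 ± 0.06 on the log2 scale (adjusted p = 0.000357, limma).

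Trib3 ranged from 4.04 to 6.603 CPM after IL1A (median 5.64), with 8 of 9 retinas below the PBS median and 2 below the lowest PBS retina, and fell by 0.23 ± 0.08 on the log2 scale (adjusted p = 0.0393, limma). Asns ranged from 31.1 to 41.1 CPM (median 35.1), with 8 of 9 retinas below the PBS median, and fell by 0.16 ± 0.06 (adjusted p = 0.0365, limma). Sesn2 ranged from 17.2 to 21.4 CPM (median 18.1), with 7 of 9 retinas below the PBS median, and fell by 0.12 ± 0.04 (adjusted p = 0.035, limma). Atf4 was not among the genes called. Its retinas ranged from 159.8 to 215 CPM around a median of 183 CPM, and its log2 difference was -0.052 (95% interval -0.17 to 0.066).

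Slc7a11 ranged from 21.9 to 104 CPM after IL1A, around a median of 81.3 CPM against 50.1 CPM after PBS. Of 9 retinas 8 lay above the PBS median and none above the highest PBS retina, and the log2 difference of 0.52 ± 0.27 was not called (adjusted p = 0.178, limma).

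Except for that of Psat1, the IL1A calls were close to the threshold. With the mouse as a fixed factor, which rests on the 7 IL1A mice with a PBS eye, no member was called by limma, with 3 at an unadjusted p below 0.05, and without the filter on low counts Psat1 was the only one. Leaving out IL1A mouse 1 or 4 left 1 member called, and leaving out mouse 5 or 9 left 2. Psat1 was called in 9 of the 9 fits that left out an IL1A mouse, Trib3 in 5, and Sesn2 and Asns in 4 each.

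After TNF alone, no member was called at day 2, where 0.655% of genes tested were called, and 1 member had an unadjusted p below 0.05 by limma. edgeR and DESeq2 also called 0 members. Atf4 ranged from 164 to 195 CPM (median 172, n = 8), with 7 of 8 retinas below the PBS median, and its log2 difference was -0.13 (95% interval -0.25 to -0.0025; adjusted p = 0.637, limma). Slc7a11 was the most variable member in this group, from 6.92 to 105 CPM, with 2 retinas below the lowest of the 31 PBS retinas. Its log2 difference was -0.41 (95% interval -1.02 to 0.20).

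At days 14 and 35 after TNF, 0% of 18023 and 0% of 17821 genes tested were called, so no member could be. By limma 838 and 871 of all genes, and 0 and 0 members, had an unadjusted p below 0.05, and edgeR and DESeq2 called 0 members on both days. Atf4 had medians of 174 CPM after TNF and 178 CPM after PBS at day 14, and of 217 and 210.3 CPM at day 35. The 95% intervals of its log2 differences ran from -0.11 to 0.065 and from -0.13 to 0.037.

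The retinas given both cytokines were then set against those given IL1A. Atf4, Sesn2 and Asns were higher with TNF added, 3 of 10 members, where 10.1% of genes tested were called and 5.39% were higher. For Atf4, 8 of 10 IL1A+TNF retinas exceeded the highest IL1A retina, and the log2 fold change was 0.31 ± 0.07 (adjusted p = 0.00345, limma). For Sesn2, all 10 retinas exceeded the IL1A median and 7 exceeded the highest IL1A retina (0.25 ± 0.05 on the log2 scale, adjusted p = 0.000737, limma). For Asns, all 10 exceeded the IL1A median and 6 the highest IL1A retina (0.25 ± 0.07 on the log2 scale, adjusted p = 0.0115, limma).

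The same 3 genes were called for the IL1A by TNF interaction, the part of the response to both cytokines that the sum of the single responses leaves over. The interaction was 0.43 ± 0.09 on the log2 scale for Atf4 (adjusted p = 0.00594, limma), 0.36 ± 0.09 for Asns (adjusted p = 0.0164) and 0.24 ± 0.07 for Sesn2 (adjusted p = 0.0396). All 10 members had a positive interaction value, with a median of 0.30 against -0.01 for all genes tested, but 3.6% of genes tested were called and 1.78% were higher, and 7 members were not called. For Atf4 the single responses to IL1A (-0.052) and TNF (-0.13) were both below zero, and the interaction counts these against the response to both (0.25). Atf4 and Asns were called in 27 of 27 fits that left out 1 mouse, and Sesn2 in 20. All these comparisons share PBS or IL1A retinas, so their values are not independent of each other.

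**Figure D2:**
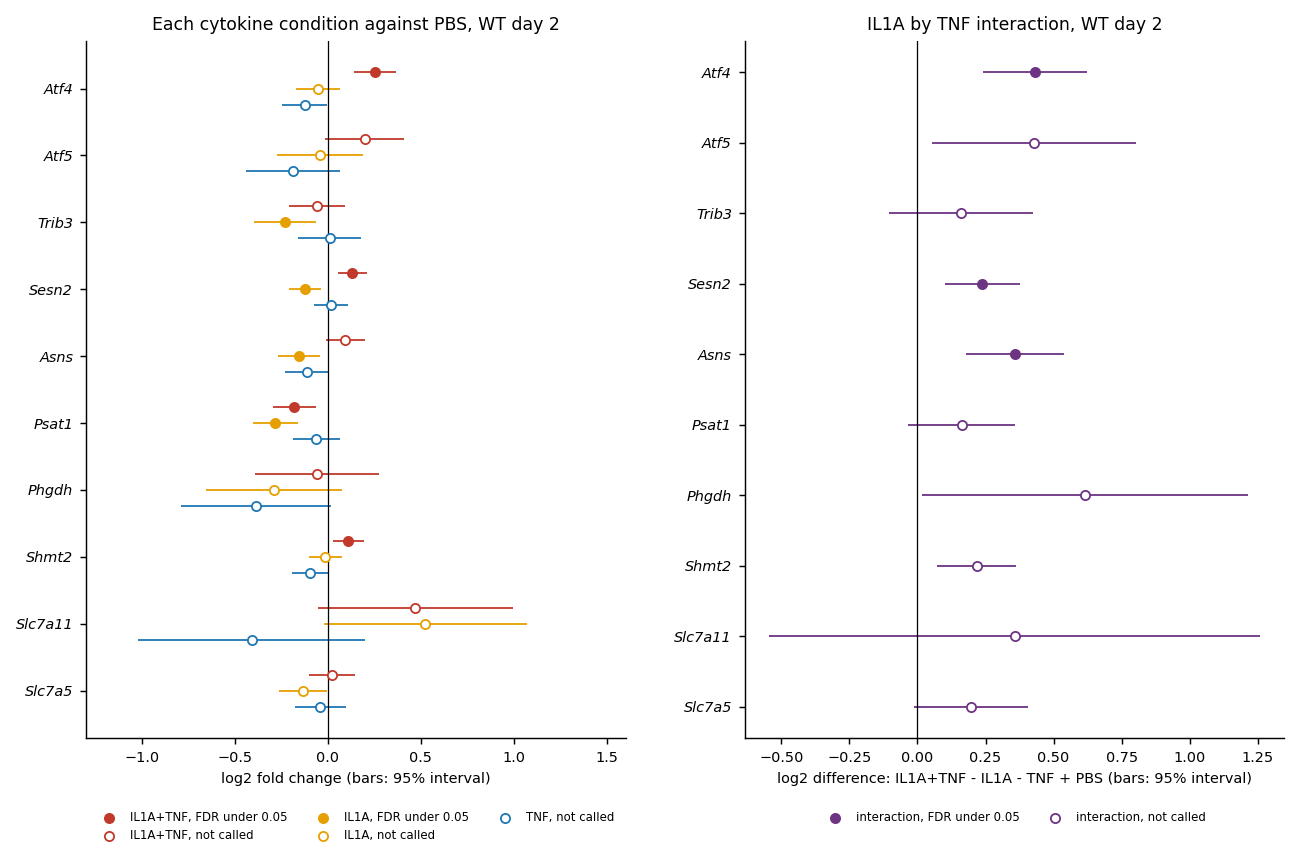
Log2 fold changes of the 10 members in WT retinas at day 2, batch 1, with 95% intervals; left, IL1A+TNF (n = 10), IL1A (n = 9) and TNF (n = 8) against PBS (n = 31); right, the IL1A by TNF interaction. Filled points were called by limma. Atf4 stood at 0.25 after both cytokines and at -0.052 and -0.13 after either one, and the interaction was called for Atf4, Sesn2 and Asns.

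Summed RNA levels of cell type markers also differed between the treatments. Summed markers of neutrophils ranged from 2.51 to 129 CPM after PBS (median 15.6), from 63.3 to 346 CPM after IL1A (median 154) and from 117 to 745 CPM after IL1A+TNF (median 182), and 5 of 6 were called higher after each. Monocyte markers had medians of 7.0, 51.8 and 53.5 CPM, with 4 and 5 of 5 called higher, and those of microglia 60.9, 118.5 and 121 CPM. Of the 6 microglial markers, 5 were called higher after IL1A, and 4 higher and 1 lower after IL1A+TNF. After TNF alone, where no member was called, the medians were 38.1 CPM for monocyte, 98.6 CPM for microglial and 20.6 CPM for neutrophil markers, and 2 of 6 microglial markers were called higher. Astrocyte markers had medians of 94.4 CPM after PBS and 259 CPM after IL1A+TNF, with 2 of 2 called higher, and Müller glia markers of 2569 and 1681 CPM, with 3 of 6 called higher and 2 lower. Rod markers, the most abundant of the retina, had medians of 42486, 35730 and 22840 CPM, with 5 of 6 called lower after IL1A and 5 after IL1A+TNF. Ganglion cell markers ranged from 377 to 547 CPM after PBS, from 284 to 478 CPM after IL1A and from 321 to 441 CPM after IL1A+TNF. Of these 5, 3 were called lower after IL1A and 4 after IL1A+TNF. Of 6 pigment epithelium markers, 5 were called lower after IL1A+TNF, 1 after IL1A and 0 after TNF, and none was called higher. Slc7a11 varied with the sum of these pigment epithelium markers within groups, as described below. The neutrophil markers Retnlg and Cxcr2 were at 0 in 24 and 18 retinas of the series. Neutrophil, monocyte, pigment epithelium and ganglion cell markers gave no interaction call. Of 6 rod markers 4 had one, and of 6 microglial markers 1, all lower. In whole retina, fewer cells of a type and less RNA per cell cannot be told apart. The part of these shifts in the member differences was not tested.

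Outside the 10 members, 48 other genes of the integrated stress response were listed, and 47 of them were tested (Fgf21 was not). After IL1A+TNF, 30 were higher and 5 lower, where 24.9% and 25.5% of all genes were, and their median log2 fold change was 0.16. After IL1A alone 4 were higher and 5 lower, where 12% and 9.45% of all genes were. After TNF alone 0 were called by limma. Of the 47, 10 had an unadjusted p below 0.05, as had 1497 of the 19548 genes tested. The interaction was called for 20, 18 higher and 2 lower, where 1.78% and 1.82% of all genes were.

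By role, all 5 listed transcription factors were higher after IL1A+TNF. Atf3, an injury-induced factor, went from a PBS median of 17.8 CPM (5.99 to 30.1) to 51.8 CPM (14.5 to 68.2), a log2 fold change of 1.39 ± 0.17 (adjusted p = 8.11e-10, limma), with an interaction of 1.38 ± 0.33 (adjusted p = 0.012). Nupr1, a chromatin-associated stress protein, rose by 1.48 ± 0.17 and Cebpb, a partner of ATF4 that also acts in inflammation, by 1.11 ± 0.18. Both also rose after IL1A alone, by 0.83 ± 0.18 and 1.16 ± 0.19, and neither had an interaction call. Ddit3, the factor known as CHOP, rose by 0.16 ± 0.05 (adjusted p = 0.0039).

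Of the 7 genes for the kinases, the phosphatase parts and eIF2alpha itself (Eif2s1), 5 were higher. The largest difference was that of Eif2ak2, the interferon-induced kinase that senses double-stranded RNA, at 1.88 ± 0.18 on the log2 scale (adjusted p = 2.17e-13, limma). Eif2ak3, the kinase of the endoplasmic reticulum, rose by 0.29 ± 0.04. Eif2ak4, the kinase that senses uncharged tRNA, had a log2 difference of -0.05 ± 0.04 and was not called.

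Among the tRNA synthetases and the tRNA exporter Xpot, 10 of 13 were higher after IL1A+TNF and 7 had an interaction call. Tars, the threonine enzyme, ranged from 46.7 to 73.3 CPM after PBS (median 57.5) and from 52.3 to 122 CPM after IL1A+TNF (median 87.9), where the IL1A median was 56.3 CPM. Its log2 fold change was 0.55 ± 0.07 (adjusted p = 6.45e-09, limma) and its interaction 0.71 ± 0.13 (adjusted p = 0.0019). Gars, the glycine enzyme, had medians of 114 and 156 CPM, a log2 fold change of 0.39 ± 0.05 (adjusted p = 7.26e-10) and an interaction of 0.38 ± 0.08 (adjusted p = 0.00428). After IL1A alone Mars, Iars and Yars were lower, and no synthetase was higher.

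Among the transporters 5 were higher and 2 lower. Slc7a1, a carrier of cationic amino acids, rose by 0.35 ± 0.05, and Slc6a9, a glycine carrier, fell by 0.39 ± 0.04. Of 10 enzymes, 3 were higher and 1 was lower, with Aldh18a1, of proline synthesis, up by 0.35 ± 0.06. The remaining targets moved both ways. Chac1, which degrades glutathione, rose by 0.53 ± 0.11 and the secreted factor Gdf15, present at under 1 CPM on average, by 1.06 ± 0.19, while Ddit4, an mTORC1 inhibitor, fell by 0.56 ± 0.06 and the lipoprotein receptor Vldlr by 0.51 ± 0.05.

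**Figure D3:**
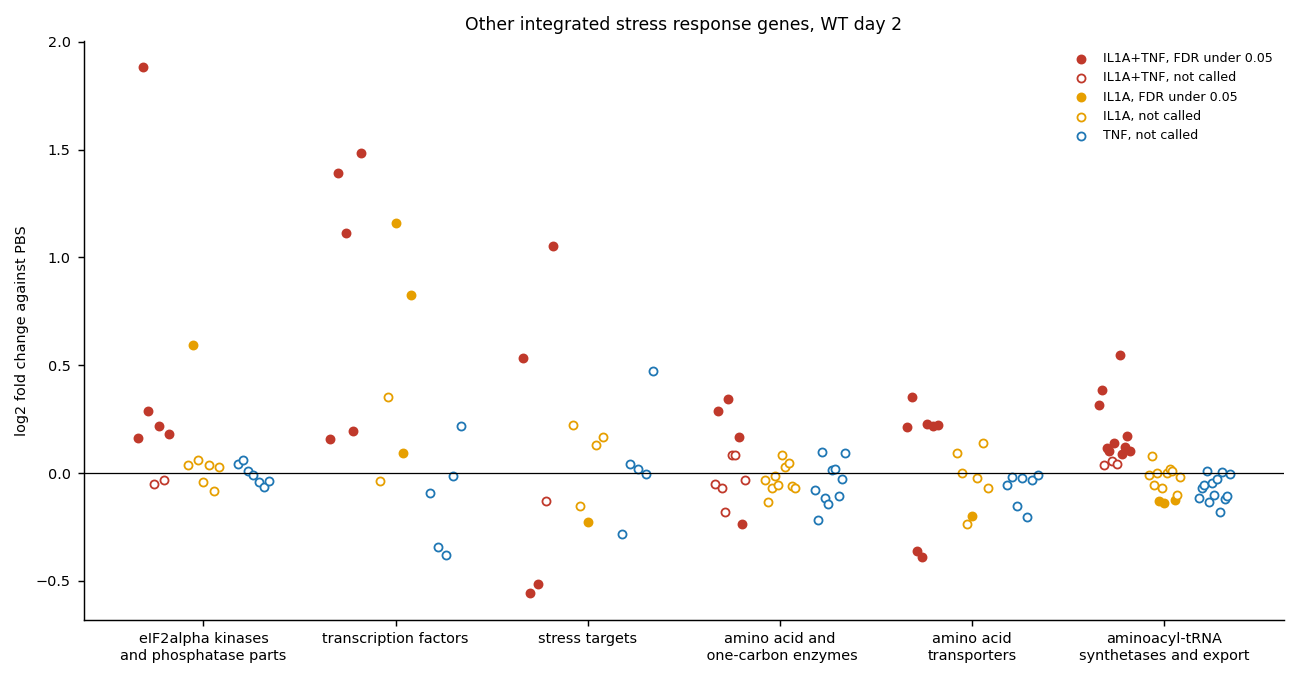
Log2 fold changes against PBS of 47 other genes of the integrated stress response in WT retinas at day 2, batch 1, by role; red, IL1A+TNF; yellow, IL1A; blue, TNF; filled points were called by limma. Most synthetases and all 5 transcription factors lie above zero after IL1A+TNF, and no gene was called after TNF.

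Among PBS retinas alone, levels were compared over the 3 days (44 retinas of 43 mice). Day cannot be told apart from harvest or from the injection of the other eye. At day 2 the other eye had received IL1A+TNF in 8 mice, IL1A in 7 and TNF in 8. At days 14 and 35 the only cytokine in the other eye was TNF, in 4 and 6 mice. Atf4, Sesn2, Shmt2 and Slc7a11 differed between days, 4 of 10 members, where 36.2% of 19372 genes tested were called. Slc7a11 had by far the widest difference. It ranged from 22.9 to 114 CPM at day 2 (median 50.1), from 9.04 to 36.0 CPM at day 14 (median 21.4) and from 8.04 to 14.9 CPM at day 35 (median 11.4). All 6 retinas at day 35 were below the lowest at day 2. Its log2 difference from day 2 was -1.33 ± 0.28 at day 14 and -2.20 ± 0.36 at day 35 (adjusted p over the days = 1.2e-06, limma).

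The other differences were small. Sesn2 had medians of 20.8, 21.6 and 23.7 CPM at days 2, 14 and 35, and was 0.19 ± 0.05 higher at day 35 than at day 2 on the log2 scale (adjusted p over the days = 0.00307, limma). Shmt2 had medians of 37.5, 32.4 and 36.6 CPM, with a day 14 difference of -0.21 ± 0.05 (adjusted p = 0.00392). Atf4 had medians of 192, 178 and 210.3 CPM (adjusted p = 0.0377). The ranges of Sesn2 and Atf4 overlapped between all days, while Shmt2 overlapped between day 2 and each later day but not between day 14 (29.4 to 34.7 CPM) and day 35 (34.9 to 42.2 CPM). Over the same days the medians of summed microglial markers were 60.9, 32.5 and 24.2 CPM, those of neutrophil markers 15.6, 1.49 and 0.957 CPM, and those of pigment epithelium markers 118, 116 and 33.6 CPM. Their part in the Slc7a11 difference was not tested.

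Batch 2 held a second set of WT mice at day 2. No member was called after IL1A+TNF against PBS, where 20.9% of 19668 genes tested were called, and 0 members had an unadjusted p below 0.05 by limma. edgeR and DESeq2 called 0. The Atf4 level was 192, 181, 191, 158 and 172 CPM in the 5 PBS retinas and 170.0 to 253 CPM in the 6 IL1A+TNF retinas (median 221), 4 of which exceeded the highest PBS retina. The log2 difference of 0.23 (95% interval -0.11 to 0.58) stood beside one of 0.25 in batch 1, with an SE of 0.17 against 0.06. The other members called in batch 1 were Sesn2, Psat1 and Shmt2. In batch 2 they stood at 0.058, -0.16 and 0.19, against 0.13, -0.18 and 0.11 in batch 1. Slc7a5 (-0.16 against 0.022) and Phgdh (0.081 against -0.060) had the other sign in batch 2, and neither was called in either batch. The spread in the batch 2 fit is shared with the Sarm1KO retinas. Without the 2 Sarm1KO mice 35.2% of genes were called, and Shmt2 was the 1 member called, at 0.21 ± 0.07 (adjusted p = 0.0243). Of the other response genes 5 were higher and 3 lower, where 13.3% and 7.55% of all genes were. Without the 2 mice 16 were higher and 3 lower, where 18.6% and 16.6% of all genes were. Gars with all mice was at 0.42 ± 0.13 (adjusted p = 0.0315, limma) and Cebpb at 2.04 ± 0.39.

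The Sarm1KO retinas addressed whether the response needs Sarm1. In PBS retinas no member differed between Sarm1KO and WT by limma, edgeR or DESeq2, with 0 at an unadjusted p below 0.05 by limma, where 0.0397% of 20154 genes tested were called. The Atf4 log2 difference was 0.13 (95% interval -0.089 to 0.35). Without the 2 mice, 0 members and 0.0342% of genes were called, with 0 members at an unadjusted p below 0.05 by limma.

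After IL1A+TNF, Atf4 in Sarm1KO retinas was 188, 209, 338, 399, 441 and 202 CPM in replicates 1 to 6, against 183 to 219 CPM after PBS. Replicates 3, 4 and 5 exceeded all PBS retinas, and the other 3 lay within the PBS range. Trib3 was 6.51, 6.00, 10.3, 16.1, 17.2 and 6.997 CPM, all above the highest Sarm1KO PBS retina (5.21 to 5.94 CPM). Replicates 1, 2 and 6 lay within the range of WT PBS retinas of batch 1 at day 2 (4.75 to 9.61 CPM). Phgdh was 4.19, 3.85, 4.16, 34.4, 60.9 and 8.78 CPM, high in replicates 4 and 5 alone. For each of the 10 members, replicates 4 and 5 were the 2 highest of the 6 retinas.

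With all mice, Atf4 rose by 0.52 ± 0.12, Atf5 by 0.58 ± 0.19, Trib3 by 0.79 ± 0.15, Sesn2 by 0.43 ± 0.10 and Shmt2 by 0.45 ± 0.11 against PBS (adjusted p between 1.73e-05 and 0.0104, limma), 5 of 10 members, where 43.5% of genes were called and 21.3% were higher. Phgdh, at 0.38 ± 0.39, was not called by limma but was by edgeR (1.15 on the log2 scale, adjusted p = 0.0233) and DESeq2 (1.14, adjusted p = 0.0171). With the mouse as a fixed factor, Trib3 (adjusted p = 0.0241) and Sesn2 (0.0449) remained, 2 members. Without the 2 mice that stood apart, 0 members were called by limma, with 2 at an unadjusted p below 0.05, and 4.2% of all genes. Atf4 was then 0.21 ± 0.12 (adjusted p = 0.338), Atf5 0.06 ± 0.19, Sesn2 0.11 ± 0.08 and Shmt2 0.02 ± 0.08 on the log2 scale. Trib3 was 0.39 ± 0.14 (adjusted p = 0.0884, limma). Its 4 remaining IL1A+TNF retinas were still above all 6 Sarm1KO PBS retinas, but replicates 1, 2 and 6 lay within the WT PBS range of batch 1. How many of all genes separated these groups was not counted. The values of Asns (-0.051), Psat1 (-0.19), Phgdh (-0.78) and Slc7a11 (-0.42) turned negative, and none was called.

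Between the genotypes after IL1A+TNF, Atf4, Atf5, Trib3, Sesn2, Psat1 and Shmt2 were higher in Sarm1KO than in WT retinas. These were 6 of 10 members, where 14.8% of genes were called and 4.04% were higher. As in the PBS comparison, WT retinas came from both batches, here batch 1 (n = 10) and batch 2 (n = 6). All Sarm1KO retinas were of batch 2, and batch was a covariate. Trib3 differed most, by 0.74 ± 0.13 on the log2 scale (adjusted p = 0.000319, limma), and Atf4 by 0.40 ± 0.11 (adjusted p = 0.00878). Phgdh, at 0.43 ± 0.36 by limma, was called by edgeR (1.20, adjusted p = 0.0394) and DESeq2 (1.19, adjusted p = 0.0274). Without the 2 mice 0 members were called by limma, with 2 at an unadjusted p below 0.05, and 0.767% of genes. Trib3 was then 0.34 ± 0.12 (adjusted p = 0.139) and Atf4 0.11 ± 0.10. Within batch 2 alone 0 members were called with all mice by limma, with 4 at an unadjusted p below 0.05. Leaving out single mice gave 1 member without Sarm1KO mouse 4 or mouse 5, and 3 without WT mouse 4 of batch 2. The share of all genes called is not given for batch 2 alone or for leaving out single mice.

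The genotype by treatment difference, the test of whether the response itself differed, was called for Trib3 alone, at 0.84 ± 0.18 (adjusted p = 0.00449, limma), where 8.75% of genes were called and 1.51% were higher. Without the 2 mice it was 0.44 ± 0.15 (adjusted p = 0.337), 0 members and 0% of genes were called, and 1 member had an unadjusted p below 0.05 by limma. The value for Atf4 was 0.27 (95% interval 0.0039 to 0.54) with all mice and -0.041 without the 2. Leaving out Sarm1KO mouse 4 or mouse 5 left 0 members called, while 4 were called without mouse 1 and 3 without mouse 2 or mouse 6.

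Of the 47 other response genes tested, 34 were higher and 3 lower in Sarm1KO retinas after IL1A+TNF against PBS, where 21.3% and 22.2% of all genes were. Without the 2 mice 1 was higher and 1 lower, where 2.47% and 1.73% of all genes were. Between the genotypes after IL1A+TNF 18 were higher, where 4.04% of all genes were. Without the 2 mice 0 were called by limma, where 0.767% of all genes were, with 9 at an unadjusted p below 0.05.

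Retinal ganglion cell markers summed to 446, 413, 201, 79.7, 65.2 and 372 CPM in the 6 Sarm1KO IL1A+TNF retinas and to 430 to 479 CPM in the PBS retinas, with 5 of 5 markers called lower. Neutrophil markers summed to 101, 227, 317, 647, 604 and 130 CPM. Replicates 3, 4 and 5, highest in Atf4 and Trib3, were thus lowest in the ganglion cell sum and highest in the neutrophil sum. They were also the 3 females, at 338 to 441 CPM of Atf4 against 188 to 209 CPM in the 3 males, whereas in WT retinas of batch 2 females ranged from 189 to 237 CPM and males from 170.0 to 253 CPM. The part of sex, of the ganglion cell markers or of the neutrophil markers in these values was not tested.

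**Figure D4:**
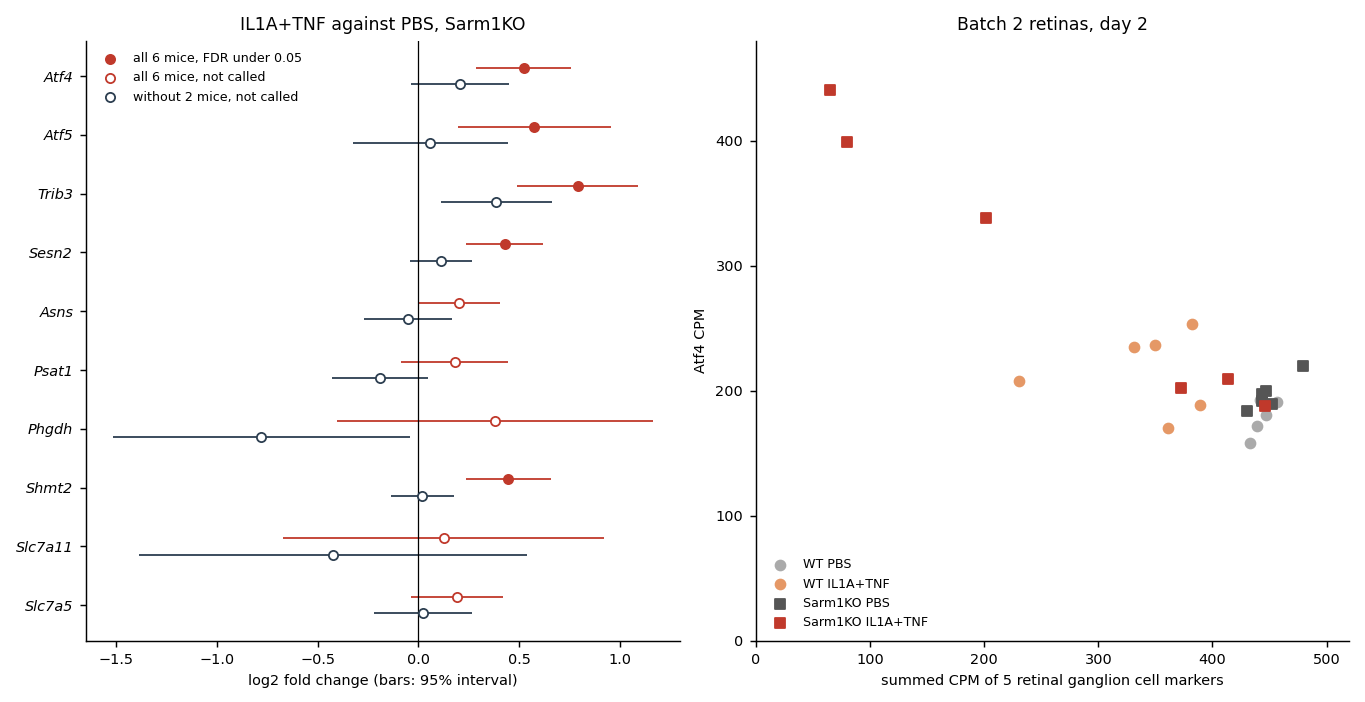
Left, log2 fold changes with 95% intervals for IL1A+TNF against PBS in Sarm1KO retinas, with all 6 mice (red) and without the 2 mice that stood apart (dark); filled points were called by limma. Right, Atf4 in CPM against the summed CPM of 5 retinal ganglion cell markers in the 23 retinas of batch 2, where the Sarm1KO IL1A+TNF retinas at 65.2 and 79.7 CPM of markers had 441 and 399 CPM of Atf4.

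Retinas within a group also differed in how the members moved together. After subtracting each group mean, Pearson's r across all retinas was 0.79 between Atf4 and Shmt2, 0.73 between Atf4 and Atf5 and 0.70 between Atf4 and Trib3. Over the 107 retinas without the 2 that stood apart it was 0.70, 0.64 and 0.57. The link of Atf4 with Psat1 went from 0.42 to 0.11, and with Slc7a11 it was 0.03 and -0.14. These are descriptions over retinas that share mice, libraries and scaling.

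Over 15130 other genes, those most like Atf4 were Clptm1l (r = 0.87), Cdk2ap2 (0.84) and Ddit3 (0.84), and without the 2 retinas Clptm1l (0.82), Cdk2ap2 (0.81) and Mthfd2 (0.79). Those most like Asns were the tRNA synthetases Nars (0.77) and Gars (0.72) with Srxn1 (0.72), and without the 2 retinas Nars (0.70), Yars (0.67) and Srxn1 (0.66). Shmt2 and Trib3 each had Atf4 as the gene most like them, with and without the 2 retinas. For Slc7a11 they were Ddr2 (0.88), Tmem176a (0.88) and Slc13a4 (0.87), none of them a member or a listed response gene.

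Slc7a11 and Phgdh varied with markers of tissue around or within the retina. Within groups, Slc7a11 had an r of 0.64 with the summed markers of the pigment epithelium, 0.63 with those of monocytes and 0.59 with those of microglia (0.64, 0.64 and 0.65 without the 2 retinas). Phgdh had an r of 0.60 with lens markers (0.68 without). Of the 5 lens markers, Lim2 was at 0 in 95 retinas and Crygd in 37. The part of carried-over tissue in the levels of either gene was not tested.

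**Figure D5:**
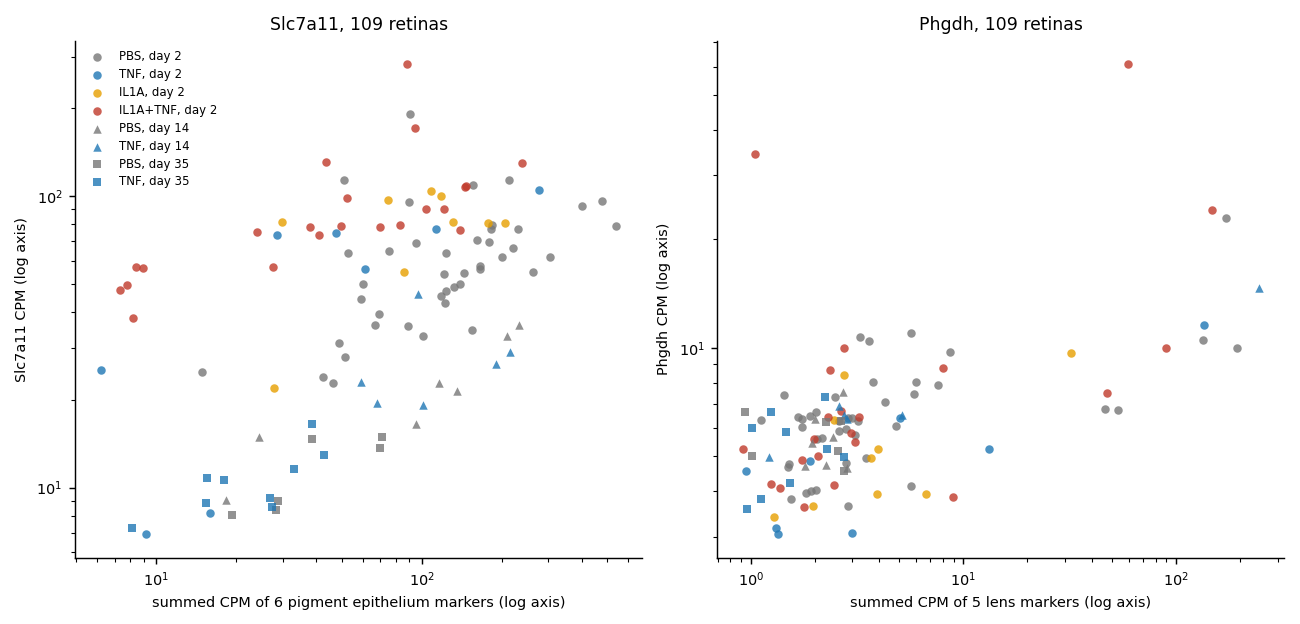
Levels in CPM (log axis) of Slc7a11 against the summed CPM of 6 pigment epithelium markers (left) and of Phgdh against that of 5 lens markers (right), with 1 point per retina in all groups; circles, day 2; triangles, day 14; squares, day 35; gray, PBS; blue, TNF; yellow, IL1A; red, IL1A+TNF. Slc7a11 is high where the pigment epithelium sum is high (r = 0.64 within groups), and Phgdh was 22.9, 24.1 and 14.7 CPM at lens sums of 172, 147 and 244 CPM but 34.4 CPM in 1 retina with a low lens sum.

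Some member counts can include reads of a neighbor. Atf5 overlaps Il4i1 (mean of 453 counts) on the opposite strand, and Shmt2 overlaps Ndufa4l2 (75.1 counts). Whether counting used strand is not given in the sources used here, so reads of such pairs could not be told apart.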

How the data were processed

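Libraries were polyA selected and sequenced as 150 bp paired-end reads. Per the study's methods and the submitters' processing notes, the authors aligned reads with STAR 2.7.9a to mm10 and deposited raw read counts per gene from featureCounts (Subread 2.0.1). The annotation release and strand setting are not given in the sources used here. Symbols and positions came from GENCODE M21 on GRCm38, matched by Ensembl id. The 10 members, the gene lists and the tests were chosen with earlier results of these data known.

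Genes were filtered with filterByExpr of edgeR 4.0.16 (minimum count 10, total 15), scaled with TMM and fitted with limma 3.58.1 (voom, sex as covariate, batch in the Sarm1 fits, duplicateCorrelation on mouse). P-values were adjusted by Benjamini-Hochberg over all genes tested, with a threshold of 0.05, and intervals are 95% moderated intervals. The mouse pairs eyes by the labels: 45 mice gave both eyes, and the median correlation of their deviations was 0.209. The same steps were tested on simulated counts. edgeR's quasi-likelihood test and DESeq2 1.42.0, relative log expression scaling, no filter, no sex term, no replicate block, the mouse as a fixed factor, and leaving out each mouse were the alternatives. Named pathway genes were the 10 of the listed 47 with the largest called differences after IL1A+TNF among those with a mean of at least 1 CPM, with others given as examples of their role chosen after their values were seen. Counts covered 30014757 to 79064488 reads per retina.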

Additional observations from a re-analysis of the deposited data

Results flagged for a closer look

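In 11 of 110 tests of a member in a group of 4 to 10 retinas, 1 retina stood outside the others by Dixon's criterion, where chance gives about 1 in 20. Of these, 5 were Phgdh. Phgdh was 22.9 CPM in Sarm1KO PBS replicate 1, 24.1 CPM in WT batch 2 IL1A+TNF replicate 3, 14.7 CPM in TNF day 14 replicate 4 and 11.5 CPM in TNF day 2 replicate 5. Summed lens markers were 172, 147, 244 and 135 CPM in these 4 retinas, and at most 13.2 CPM in the other retinas of their groups. Phgdh was also 10.96 CPM in WT batch 2 PBS replicate 2, where the lens sum was 5.65 CPM and the pigment epithelium sum was 541 CPM against at most 230 CPM in the others of its group. Slc7a11 stood out in 2 of the same retinas, at 190.4 CPM in Sarm1KO PBS replicate 1 and 46.2 CPM in TNF day 14 replicate 4. The part of lens or pigment epithelium RNA in these values was not tested.

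Atf5 stood out at 24.9 CPM in IL1A replicate 8, at 20.5 CPM in PBS day 14 replicate 1 and at 26.6 CPM in PBS day 35 replicate 1. Slc7a5 stood out at 64.8 CPM in PBS day 14 replicate 1, the retina in which Atf5 also did.

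The response to one factor differed by the level of the other in 4 cases. The IL1A by TNF interaction was 0.43 for Atf4, 0.24 for Sesn2 and 0.36 for Asns on the log2 scale, and the genotype by treatment difference was 0.84 for Trib3, which was not called without the 2 Sarm1KO mice that stood apart.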

How the results depend on the processing

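With the mouse as a fixed factor, a replicate block, the number of members called went from 4 to 1 for IL1A+TNF against PBS at day 2, from 4 to 0 for IL1A against PBS and from 5 to 2 for IL1A+TNF against PBS in Sarm1KO. That fit rests on the mice with both eyes. Removing the block changed no call. Without the filter on low counts, IL1A against PBS gave 1 member and the Sesn2 interaction was not called (adjusted p = 0.0575, limma). DESeq2 gave 2 members for genotype by treatment, and batch 2 alone gave 0 for Sarm1KO against WT after IL1A+TNF and 0 for genotype by treatment. The share of all genes called is not given here for these settings or for leaving out 1 mouse. Changes in these counts are thus not shown to be particular to the members.

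Leaving out 1 mouse at a time gave 1 to 4 members for IL1A against PBS, 0 to 4 for genotype by treatment and 1 to 7 for Sarm1KO against WT after IL1A+TNF. These fits kept the correlation of the fit with all mice. Single values changed sign. For Atf4 the TNF difference at day 14 ran from -0.060 to 0.012. For Phgdh the values ran from -0.21 to 1.02 in Sarm1KO against PBS and from -0.093 to 0.74 in Sarm1KO against WT after IL1A+TNF, with a call in 1 fit (1.02 against PBS, without the mouse of Sarm1KO PBS replicate 1), and for Slc7a11 from -0.24 to 0.40 and from -0.34 to 0.22. Slc7a11 in Sarm1KO against WT after IL1A+TNF was 0.23 by edgeR and 0.22 by DESeq2. Phgdh was called by both in Sarm1KO against PBS (1.15 and 1.14) and in Sarm1KO against WT after IL1A+TNF (1.20 and 1.19).

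Without the 2 Sarm1KO mice, an alternative chosen after seeing the data, 1 member was called in WT batch 2 and 0 in Sarm1KO against PBS, Sarm1KO against WT after IL1A+TNF and genotype by treatment. Values that changed sign were Asns (-0.051), Psat1 (-0.19), Phgdh (-0.78) and Slc7a11 (-0.42) against PBS, Psat1 (-0.056), Phgdh (-0.68), Shmt2 (-0.041) and Slc7a5 (-0.081) against WT, and Atf4 (-0.041), Atf5 (-0.14), Asns (-0.13), Psat1 (-0.019), Phgdh (-0.79) and Shmt2 (-0.11) for genotype by treatment. Psat1 in PBS retinas of Sarm1KO against WT also did (-0.037). The cause was not tested. Depth limits Trib3 and Phgdh most, at a few CPM. P-values set a difference against the spread between retinas of this study, pooled over all groups of a fit. The correlation within mice in the fits was 0.052 at day 2 in batch 1, -0.076 in batch 2 and 0.0053 over the 81 retinas of the Sarm1 fits. The Sarm1KO errors thus do not measure the spread of the Sarm1KO retinas alone. For Atf4 the SD was 111 CPM in Sarm1KO after IL1A+TNF and 22.2 CPM in WT PBS retinas of batch 1 at day 2.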
